A study of Mus musculus with 12 samples.

Results

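The genes described here are 37 listed genes of the Z-disc, the M-band and the titin filament of the striated muscle sarcomere. A gene entered when the name column of the array files gave that symbol on a probe that was not a control. Of the 37, 34 were found in that way, on 75 probes, among 27598 gene names on 41174 probes in all. The other 3 stood in the files under earlier names and were matched by accession or synonym, on 5 probes: Mybpc1 as 8030451F13Rik, Xirp1 as Cmya1 and Xirp2 as Cmya3. All 37 were well above background on every array of at least 1 group, so all were tested. Counts below are over the 34, and the 3 are given beside them.

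RNA came from 4 groups of 3 samples, and each sample was labelled with Cy3 and hybridised to 1 one-colour Agilent mouse array. Myoblasts were proliferating C2C12 cells, an established mouse muscle cell line, taken at about 50% confluence. Myotubes were the same line 96 hours after the start of differentiation, separated from mononucleated cells by trypsin and a short replating. EDL (extensor digitorum longus, a fast glycolytic hind limb muscle) and soleus (a slow oxidative one) came from male CD1 mice 3 months old, and each sample joined both hind limbs of 1 mouse. C2C12 is a single line, so its cultures carry 1 genotype, while whole muscle holds cells other than fibres. Nothing in the labels tells if cultures of 1 group were separate, nor if an EDL and a soleus sample came from the same mouse. The p-values therefore weigh differences against the spread among these samples, part of which may be technical.

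The sarcomere is the contractile unit of a muscle fibre. Thin actin filaments are anchored in the Z-disc, where alpha-actinins cross-link them, and thick myosin filaments are held in register at the M-band by myomesins. Titin runs from the Z-disc to the M-band and carries passive tension, and many smaller Z-disc proteins bind titin or alpha-actinin and connect the sarcomere to stretch-dependent signalling, to calcineurin and to the desmin filament network. Several of these proteins exist as related genes whose use differs between fast and slow fibres, as is known for the alpha-actinins and for the calcineurin-binding myozenins.

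The 12 arrays lay on 3 slides with 1 array of each group, so the replicate number is also the slide. Slide 1 was scanned on a different day, and each group always took the same place on a slide, so place and group cannot be told apart. On an array, 57.4 to 72.9% of probes were well above background, and the lowest correlation between 2 arrays of a group was 0.974 over probes, which are not independent. Signal below means the log2 of the scanner's processed intensity, set to each array's 75th percentile. It compares arrays for 1 probe and does not compare 2 genes. A gene was called at a Benjamini-Hochberg adjusted p under 0.05 over 18871 genes (18870 for myotubes against myoblasts) in limma's moderated test and a log2 difference of at least 1 in size. Known marker genes were checked against the labels. Of 5 genes of dividing myoblasts, 5 were lower in myotubes than in myoblasts (16.2% of all genes). Between the muscles, 6 of 6 slow fibre genes were higher in soleus than in EDL (4.94%). Lower in soleus were 3 of 7 fast fibre genes (4.8%). Scaling by spike-in RNA in place of the percentile moved the median probe by -0.37 in myotubes against myoblasts, -0.96 in EDL against myotubes, -1.24 in soleus against myotubes and -0.28 in soleus against EDL. Differences are therefore relative to the bulk of probes on an array.

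The upstream sequences below belong to 5 members that, like Actn3, were called against myotubes in both muscles but not as higher in both: Myoz2, Csrp3 and Ankrd2, which were lower in EDL but higher in soleus than in myotubes, and Ankrd1 and Mybph, which were lower in both muscles than in myotubes. Each is the 250 bases before a transcription start listed by RefSeq for build GRCm38.p6, read 5′ to 3′ on the gene's strand. For Csrp3, which has more than 1 listed start, the one farthest upstream is shown. Capitals mark matches on either strand to the E-box CANNTG, to the MCAT element CATTCC, and to MEF2 and CArG elements by their usual consensus. E-boxes are bound by MyoD family factors, MCAT elements by TEAD factors, MEF2 elements by MEF2 factors and CArG elements by serum response factor.
Myoz2, chr3:123034988-123035237, minus strand: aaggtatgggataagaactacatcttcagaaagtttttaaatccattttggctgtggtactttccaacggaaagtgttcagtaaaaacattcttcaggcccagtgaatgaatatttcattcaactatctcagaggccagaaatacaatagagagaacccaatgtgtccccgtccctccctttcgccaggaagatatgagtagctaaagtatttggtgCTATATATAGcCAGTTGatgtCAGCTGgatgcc
Csrp3, chr7:48848052-48848301, minus strand: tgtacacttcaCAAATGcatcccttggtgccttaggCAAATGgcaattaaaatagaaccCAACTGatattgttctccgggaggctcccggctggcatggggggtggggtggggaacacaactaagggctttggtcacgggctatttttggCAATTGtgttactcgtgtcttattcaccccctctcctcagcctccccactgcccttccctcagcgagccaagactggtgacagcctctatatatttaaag
Ankrd2, chr19:42035777-42036026, plus strand: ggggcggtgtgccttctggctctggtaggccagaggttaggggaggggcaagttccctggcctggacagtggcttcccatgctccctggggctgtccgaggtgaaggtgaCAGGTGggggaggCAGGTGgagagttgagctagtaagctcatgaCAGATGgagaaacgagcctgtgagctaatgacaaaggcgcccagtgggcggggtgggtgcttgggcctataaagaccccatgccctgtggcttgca
Ankrd1, chr19:36119845-36120094, minus strand: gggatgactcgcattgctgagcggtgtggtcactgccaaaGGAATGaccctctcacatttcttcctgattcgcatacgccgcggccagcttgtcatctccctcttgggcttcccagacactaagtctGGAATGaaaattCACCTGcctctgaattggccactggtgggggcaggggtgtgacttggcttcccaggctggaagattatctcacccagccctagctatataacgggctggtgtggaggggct
Mybph, chr1:134193198-134193447, plus strand: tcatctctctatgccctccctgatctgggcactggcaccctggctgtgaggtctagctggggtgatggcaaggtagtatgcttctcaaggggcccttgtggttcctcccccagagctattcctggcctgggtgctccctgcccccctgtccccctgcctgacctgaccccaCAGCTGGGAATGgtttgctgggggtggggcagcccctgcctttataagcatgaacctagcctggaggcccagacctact

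Myoz2 held a MEF2 match 33 to 24 bases before its start and 2 E-boxes between that and the start. Csrp3 held 4 E-boxes in the window shown and Ankrd2 held 3, and neither held one of the other motifs. Ankrd1 held 2 MCAT matches and 1 E-box, and in Mybph 1 E-box was followed directly by 1 MCAT match. The table of promoters listed 27 of the 37 members, with 34 starts. An E-box stood before 25 of these 34 starts (73.5%) against 66.2% of 32851 starts of all genes, and an MCAT match before 7 (20.6%) against 12.6%. A MEF2 match stood before 6 (17.6%) against 2.92%, and a CArG match before 6 (17.6%) against 1.47%. Besides Myoz2, the MEF2 matches were before Ttn, Mybpc3, Xirp2, Synpo2 and Fhl2, and the CArG matches were before Myom1, Ldb3, Fhl1 and Fhl2. The CArG matches thus belong to 4 of the 27 members, and the 2 Ldb3 windows overlap and hold the same site. Starts of 1 gene are not independent. A match is only a run of letters. No binding was measured in these samples.

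Myotubes and myoblasts were compared to follow the genes through differentiation in culture. Of the 34 members, 30 were higher in myotubes and 1, Fhl2, was lower, and 19.3% of all genes were called higher and 16.2% lower. The median difference of the members was 4.33 on the log2 scale, and that of all genes was 0.06. The arrays of the 2 groups did not overlap for 32 of the 34, as for 68.9% of all genes. The 3 members not called were Myoz3, Fhl1 and Fhl3. Mybpc1, Xirp1 and Xirp2 were also called higher. With spike-in scaling 29 members were higher and 1 lower, where of all calls 38.1% were higher against 54.3% with the percentile.

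Adult muscles were compared with myotubes to set differentiation in culture against fibres in vivo. In EDL, 19 of 34 members were higher and 6 lower than in myotubes (28.4% and 19.6% of all genes), with a median difference of 1.48 against 0.23 for all genes. In soleus, 22 were higher and 4 lower (26.1% and 19.3% of all genes), with a median of 1.56 against 0.15. Arrays did not overlap for 32 of 34 members in either comparison, as for 76.3% of all genes in EDL and 74.1% in soleus. Both comparisons used the same myotube arrays. With spike-in scaling 12 members were higher and 10 lower in EDL, and 13 higher and 8 lower in soleus, where of all calls 26.1% against 59.2% were higher in EDL and 19.3% against 57.4% in soleus. Of the 34, 16 were higher in both muscles, and these included Ttn, Neb, Myom1, Tcap, Ldb3, Myot and Cmya5. No share of all genes higher in both muscles was taken. With spike-in scaling Neb, Nexn, Pdlim5, Fhl3 and Synpo2 lost both calls, and Nrap lost its EDL call. Ankrd1 and Mybph were lower in both muscles. Myoz2, Csrp3 and Ankrd2 were lower in EDL and higher in soleus, and Actn3 was higher in EDL and lower in soleus. Whole muscle holds vessels, connective tissue and nerve, and in such bulk samples fewer cells of a type and less RNA per cell cannot be told apart.

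Soleus and EDL were compared for the contrast of slow and fast muscle. Of the 34 members, 8 were higher in soleus (Fhl2, Ankrd2, Myoz2, Csrp3, Actn2, Flnc, Cryab and Nrap) and 7 were lower (Actn3, Mybpc2, Mybph, Myoz1, Ankrd1, Myom2 and Pdlim7). Of all genes, 4.94% were called higher and 4.8% lower. Arrays of the muscles did not overlap for 23 of the 34, against 44.8% of all genes. Of the members under earlier names Xirp1 was higher, and Mybpc1 and Xirp2 were not called. With spike-in scaling 4 members were higher and 6 lower, where of all calls 34.5% against 50.7% were higher. Ranked by group mean, 16 of the 34 were highest in soleus, 12 in EDL, 5 in myotubes and 1, Fhl2, in myoblasts.

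**Figure D1:**
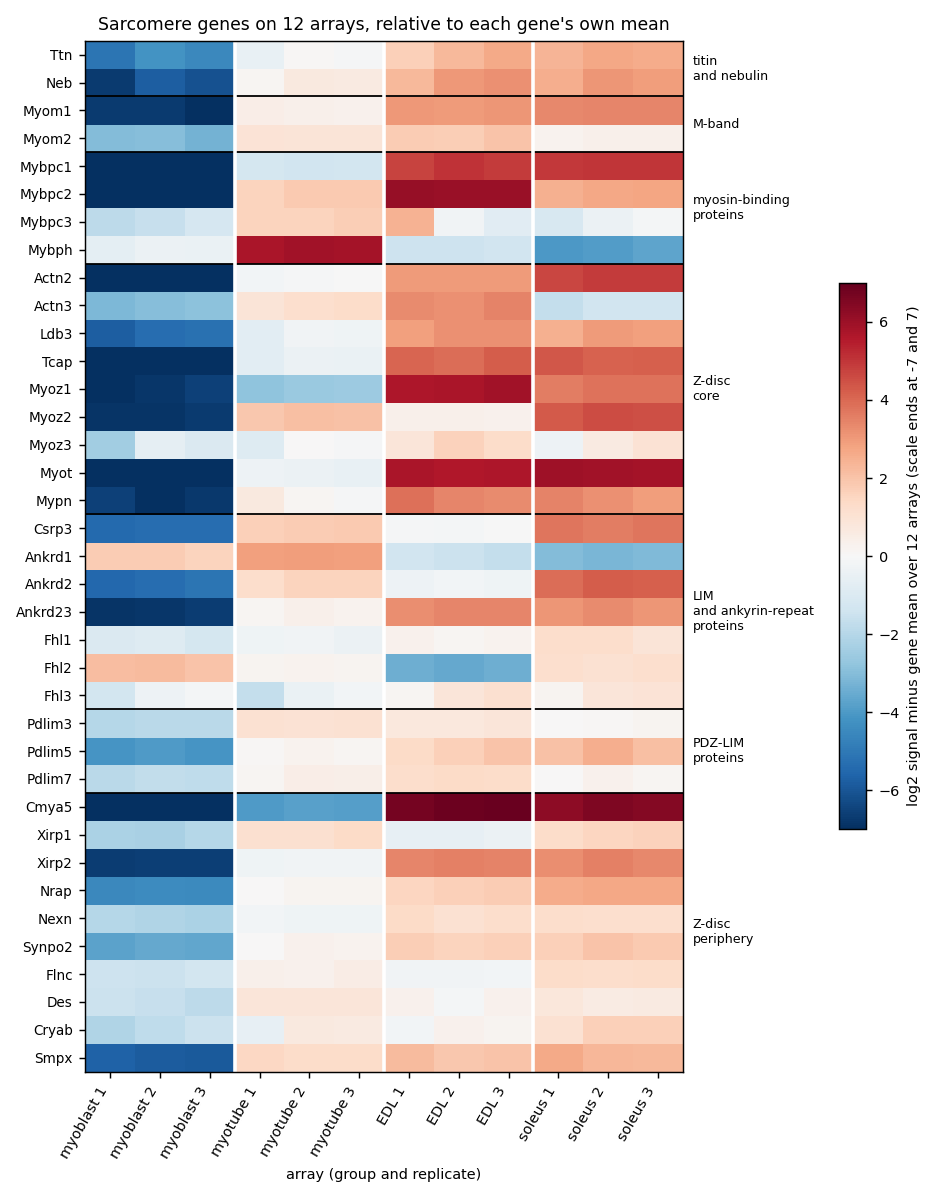
Signal of the 37 genes (rows, grouped by role) on the 12 arrays (columns), as log2 signal minus the gene's own mean over the 12 arrays; red is above the mean and blue below. Most rows go from blue in myoblasts to red in muscle, while Mybph and Ankrd1 are highest in myotubes, and Fhl2 is highest in myoblasts and lowest in EDL.

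Titin and nebulin were both higher in myotubes than in myoblasts and higher again in both muscles. Ttn encodes the giant elastic filament, and its brightest probe (chr2:76746309-76746368, minus strand; mm8, as for all probe positions below, which the array design gives without gene models) read 10.22, 11.16 and 10.81 in myoblasts, 14.82, 15.41 and 15.27 in myotubes, 17.02, 17.62 and 17.99 in EDL and 17.74, 18.06 and 17.92 in soleus. Myoblasts were lowest and both muscles above myotubes without overlap, while EDL and soleus overlapped. The rise in myotubes was 4.44 (SE 0.29, adjusted p = 3.1e-07), a 21.7-fold difference, and the further rises were 2.38 (SE 0.29, adjusted p = 3e-05) in EDL and 2.74 (SE 0.29, adjusted p = 1e-05) in soleus. Neb encodes nebulin, which runs along the thin filament from the Z-disc, and averaged 8.66 ± 0.45 (SD, n = 3) in myoblasts, 15.33 ± 0.31 in myotubes, 17.67 ± 0.52 in EDL and 17.71 ± 0.28 in soleus. It was 101-fold higher in myotubes than in myoblasts and 5.09-fold and 5.23-fold higher again in EDL and soleus. The Neb calls in muscle were lost with spike-in scaling (1.39 and 1.15). Between the muscles the difference was 0.36 for Ttn (95% interval -0.28 to 1.01) and 0.04 for Neb (-0.64 to 0.72), and neither was called.

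Ttn was read by 9 probes, all on NM_011652, the N2-A transcript, except 1 on a cDNA described as similar to the short NOVEX-3 form of titin. All 9 were called higher in myotubes than in myoblasts, where 18.7% of all probes were called higher and 16.4% lower, with differences of 2.95 to 6.48. All 9 were also called higher in EDL (26.5% of probes higher, 20.1% lower) and in soleus (24.5% and 19.9%) than in myotubes. Between soleus and EDL, 7 of the 9 differed by 0.11 to 0.36 and overlapped. The probe nearest the start of the gene (chr2:76765947-76766006, minus strand) read 16.06, 16.57 and 16.78 in EDL and 17.78, 17.91 and 17.75 in soleus, and was called higher in soleus by 1.34 (SE 0.24, adjusted p = 0.002). The probe on the NOVEX-3-like cDNA (chr2:76714937-76714996, minus strand) went the other way, with 15.79, 15.79 and 15.97 in EDL and 14.86, 14.98 and 14.98 in soleus, a difference of -0.91 (SE 0.09, adjusted p = 2.9e-05) that was under the size asked for a call. The 2 muscles did not overlap on either of these probes, and overlapped on the 7 others. The 5 Neb probes lay together between the muscles, from -0.04 to 0.19.

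Of the myomesins, Myom2 was called lower in soleus than in EDL and Myom1 was not called. Myom1 encodes myomesin 1, the general cross-linker of the M-band, and Myom2 encodes M-protein, known from fast fibres. Myom1 read 5.96, 5.94 and 5.65 in myoblasts, 13.15, 12.99 and 12.94 in myotubes, 15.68, 15.67 and 15.77 in EDL and 16.00, 16.10 and 16.09 in soleus. It rose by 7.17 (SE 0.10, adjusted p = 6.6e-12) in myotubes and by 2.68 in EDL and 3.04 in soleus over myotubes (adjusted p = 2.7e-09 and 1.1e-09), and groups did not overlap. Myom2 (chr8:15133299-15133358, plus strand) read 14.06, 14.16 and 13.83 in myoblasts, 18.06, 18.03 and 18.03 in myotubes, 18.91, 18.85 and 19.14 in EDL and 17.38, 17.49 and 17.47 in soleus. Myotubes were 16.3-fold above myoblasts (adjusted p = 3.3e-10), EDL stood highest, and the soleus arrays lay below the myotube arrays. Soleus was lower than EDL by 2.86-fold, with a log2 difference of -1.52 (SE 0.10, adjusted p = 2.9e-06). The EDL and myotube difference of 0.93 was not called and changed sign with spike-in scaling (-0.03), quantile normalisation (-0.43) and the authors' values (-0.32). The soleus and myotube difference of -0.59 was not called either, but was called lower with quantile normalisation (-1.71), spike-in scaling (-1.83), normexp (-1.07) and the authors' values (-1.56).

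Of the 4 myosin-binding genes, Mybpc1, Mybpc2, Mybpc3 and Mybph, all were higher in myotubes than in myoblasts (19.3% of all genes). Mybpc1 and Mybpc2 encode the slow and fast skeletal forms of myosin-binding protein C, which sits in stripes along the thick filament. Mybpc1 (chr10:87952891-87952950, minus strand) read 2.63, 3.37 and 3.10 in myoblasts, 10.39, 10.31 and 10.33 in myotubes, 16.38, 16.68 and 16.50 in EDL and 16.58, 16.64 and 16.63 in soleus. It rose by 7.31 (SE 0.16, adjusted p = 1.1e-10) in myotubes and by 6.18 and 6.27 more in EDL and soleus (adjusted p = 2.1e-10 and 2.3e-10), and the 2 muscles overlapped with a difference of 0.10. Mybpc2 (chr7:44369762-44369821, minus strand) read 2.24, 2.44 and 3.01 in myoblasts, 14.57, 14.84 and 14.86 in myotubes, 19.12, 19.08 and 19.06 in EDL and 15.51, 15.71 and 15.79 in soleus. It rose in myotubes by 12.19 (SE 0.18, adjusted p = 1.1e-11), a size that rests on myoblast signal well above background on 1 of 3 arrays. EDL stood 20.2-fold above myotubes (adjusted p = 6.3e-09) and soleus 10.7-fold below EDL, a log2 difference of -3.42 (SE 0.18, adjusted p = 4.4e-07). The soleus and myotube difference of 0.91 was not called, and its sign changed with spike-in scaling (-0.32).

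Mybph encodes myosin-binding protein H, a smaller relative of the same thick filament family. Mybph (chr1:136016493-136016810, plus strand) read 10.25, 10.49 and 10.44 in myoblasts, 16.60, 16.77 and 16.75 in myotubes, 9.46, 9.44 and 9.55 in EDL and 6.91, 6.99 and 7.21 in soleus. Myotubes stood above every other group without overlap. It was 79.7-fold higher than in myoblasts (adjusted p = 1.6e-11), then 149-fold lower in EDL and 817-fold lower in soleus (log2 differences of -7.22 and -9.67, adjusted p = 6.1e-12 and 1.4e-12). The soleus decrease was the largest of any member in the 4 comparisons. Soleus was also below EDL, with a log2 difference of -2.45 (SE 0.10, adjusted p = 1.2e-07), a call lost with normexp background correction (-1.14). The other Mybph probe gave 6.31, -7.26, -9.86 and -2.60 in the 4 comparisons, which is close to these values.

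Mybpc3 encodes the cardiac form of myosin-binding protein C and was dim throughout. It read 4.16, 4.38 and 4.82 in myoblasts, 7.56, 7.55 and 7.69 in myotubes, 8.43, 5.72 and 5.16 in EDL and 4.85, 5.54 and 5.85 in soleus. EDL replicate 1 stood far above the other EDL arrays, and soleus was well above background on 2 of 3 arrays. The rise in myotubes was 3.14 (SE 0.69, adjusted p = 0.0023), a call lost with normexp (0.25), and the soleus and myotube difference was -2.19 (SE 0.69, adjusted p = 0.016), which turned to 0.02 with normexp and was lost without soleus replicate 1 (-1.90), without replicate 2 (-2.28) or without replicate 3 (-2.36) of every group. EDL and myotubes overlapped with a difference of -1.16, which passed as lower without EDL replicate 1 (-2.16).

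The alpha-actinins, which cross-link thin filaments in the Z-disc, were called in opposite directions between the muscles. Actn2 is made in all fibres, and Actn3 is known as the fast fibre form. Actn2 (chr13:12327056-12329428, minus strand) read 5.02, 4.98 and 4.62 in myoblasts, 12.44, 12.55 and 12.58 in myotubes, 15.57, 15.59 and 15.61 in EDL and 17.31, 17.53 and 17.49 in soleus. Each group lay above the one before in that order without overlap. The rise in myotubes was 7.65 (SE 0.11, adjusted p = 1.1e-11), and EDL and soleus lay 8.38-fold and 30.2-fold above myotubes (adjusted p = 2.8e-09 and 1.1e-10). Soleus exceeded EDL by 1.85 (SE 0.11, adjusted p = 1.2e-06), a call lost with spike-in scaling (1.58) and normexp (1.5), where the difference kept its sign. Actn3 (chr19:4861727-4862212, minus strand) read 12.03, 12.19 and 12.28 in myoblasts, 16.06, 16.34 and 16.45 in myotubes, 18.48, 18.37 and 18.67 in EDL and 13.52, 13.85 and 13.86 in soleus. It rose by 4.12 (SE 0.14, adjusted p = 2e-09) in myotubes and by 2.22 more in EDL (adjusted p = 1.4e-07), and was lower in soleus than in myotubes, with a difference of -2.54 (SE 0.14, adjusted p = 5.4e-08). Soleus was 27.2-fold below EDL (log2 difference -4.76, SE 0.14, adjusted p = 1.1e-08), the largest decrease of any member between the muscles.

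The myozenins bind calcineurin and alpha-actinin at the Z-disc. Myoz1 is known from fast and Myoz2 from slow and cardiac fibres. Myoz1 (chr14:19437813-19437872, minus strand) read 5.23, 5.49 and 5.81 in myoblasts, 9.52, 9.72 and 9.76 in myotubes, 17.96, 18.05 and 18.20 in EDL and 15.89, 16.11 and 16.13 in soleus. It rose by 4.16 (SE 0.15, adjusted p = 2.9e-09) in myotubes, a call lost with normexp (1.86). In EDL it stood 339-fold and in soleus 83.1-fold above myotubes (log2 differences of 8.40 and 6.38, adjusted p = 2.3e-11 and 1.1e-10). Soleus was below EDL, with a log2 difference of -2.03 (SE 0.15, adjusted p = 3.9e-06), a call lost with normexp although the value there was -2.40. Myoz2 (chr3:122998590-123005631, minus strand) read 6.18, 6.17 and 6.30 in myoblasts, 14.88, 15.13 and 15.09 in myotubes, 13.39, 13.38 and 13.31 in EDL and 17.33, 17.57 and 17.53 in soleus. Myotubes were 452-fold above myoblasts (adjusted p = 3.1e-12), and they stood between the muscles, above EDL by 3.20-fold (log2 difference -1.68, SE 0.09, adjusted p = 6.8e-08) and below soleus by 5.44-fold (2.44, SE 0.09, adjusted p = 4.2e-09). Soleus exceeded EDL by 4.12 (SE 0.09, adjusted p = 2.7e-09). A second Myoz2 probe was also called higher in soleus than in EDL (4.47), and was not called in EDL against myotubes (-0.71).

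Myoz3 was dim, and well above background on 2 of 3 myoblast, myotube and soleus arrays. It was tested only because all 3 EDL arrays were well above background, so its EDL call is not independent of that filter. It read 2.01, 3.81 and 3.43 in myoblasts, 3.53, 4.46 and 4.32 in myotubes, 5.29, 6.02 and 5.74 in EDL and 4.08, 5.04 and 5.45 in soleus. Myoblasts and myotubes overlapped, with a difference of 1.02 (SE 0.50, adjusted p = 0.1) that was not called, passed with the replicate number as a block (1.02) or without myoblast replicate 2 (1.38), and turned with normexp (-1.01). EDL exceeded myotubes by 1.58 (SE 0.50, adjusted p = 0.015), a call lost with spike-in scaling (0.62), normexp (0.80), quantile normalisation (0.96) and the authors' values (0.94), and without myotube replicate 1 (1.29), EDL replicate 2 (1.41), replicate 2 (1.59) or replicate 3 (1.66).

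Of the remaining Z-disc core genes, Ldb3, Tcap, Myot and Mypn rose in myotubes and again in both muscles, and none differed by a call between the muscles. Ldb3 encodes ZASP (Cypher), which joins alpha-actinin to titin, and averaged 6.81 in myoblasts, 11.82 in myotubes, 15.35 in EDL and 15.03 in soleus (SD 0.18 to 0.31, n = 3). Tcap encodes telethonin, the cap on the amino terminus of titin, and averaged 7.74, 14.98, 19.60 and 19.74 in the same order. It was 151-fold higher in myotubes than in myoblasts, and 24.6-fold and 27.1-fold higher again in EDL and soleus (adjusted p = 2.5e-10 and 2.4e-10).

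Myot and Mypn encode myotilin and myopalladin, related immunoglobulin-domain proteins of the Z-disc, and on the myoblast arrays neither was well above background. For such genes a fold is a lower bound, set against the lowest signal well above background on each array of the dim group. The adjusted p beside it is of the limma difference in signal as read, not of the bound. Such a gene was also tested only because it was well above background in another group. Myot (chr18:44480878-44480937, plus strand) read 1.27, 1.06 and 0.77 in myoblasts, 11.79, 11.72 and 11.59 in myotubes, 17.86, 17.75 and 17.79 in EDL and 18.08, 17.99 and 17.98 in soleus. It was at least 427-fold higher in myotubes than in myoblasts (adjusted p = 3.2e-12). EDL and soleus stood 68.6-fold and 79.5-fold above myotubes (log2 differences of 6.10 and 6.31, adjusted p = 3.8e-11 and 3.4e-11). Mypn (chr10:62511600-62511659, minus strand) read 2.55, 1.49 and 2.33 in myoblasts, 9.80, 9.22 and 9.02 in myotubes, 12.91, 12.48 and 12.40 in EDL and 12.54, 12.30 and 12.02 in soleus. It was at least 83.2-fold higher in myotubes than in myoblasts (adjusted p = 9.3e-09), a call lost with normexp (2.07). Its muscle values lay 3.25 and 2.94 above myotubes on the log2 scale (adjusted p = 3e-06 and 7e-06).

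Csrp3 and the muscle ankyrin-repeat genes belong to the titin-linked proteins that are known to respond to stretch. Csrp3 encodes muscle LIM protein, and Ankrd1, Ankrd2 and Ankrd23 encode the 3 muscle ankyrin-repeat proteins, which bind the N2A segment of titin. Csrp3 (chr7:48698714-48700628, minus strand) read 7.09, 7.2 and 7.21 in myoblasts, 14.22, 14.36 and 14.39 in myotubes, 12.47, 12.40 and 12.54 in EDL and 16.28, 16.16 and 16.30 in soleus. It rose by 7.15 (SE 0.08, adjusted p = 3.2e-12) in myotubes. EDL was 3.61-fold below myotubes (log2 difference -1.85, SE 0.08, adjusted p = 9.1e-09) and soleus 3.79-fold above them (1.92, SE 0.08, adjusted p = 7.4e-09), the latter a call lost with spike-in scaling (0.68). Soleus exceeded EDL by 3.77 (SE 0.08, adjusted p = 1.7e-09).

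Ankrd2 (chr19:42097387-42097446, plus strand) read 7.29, 7.48 and 7.70 in myoblasts, 14.05, 14.38 and 14.33 in myotubes, 12.46, 12.59 and 12.50 in EDL and 16.73, 17.02 and 17.00 in soleus. The order was the same as for Csrp3 and Myoz2, with EDL below and soleus above the myotubes and no overlap. The differences were 6.76 (SE 0.13, adjusted p = 5.4e-11) in myotubes against myoblasts, -1.74 (SE 0.13, adjusted p = 7.3e-07) in EDL and 2.66 (SE 0.13, adjusted p = 2.7e-08) in soleus against myotubes, and 4.40 (SE 0.13, adjusted p = 1.4e-08) between the muscles, which is 21.1-fold. Ankrd1 (chr19:36177463-36177522, minus strand) read 15.86, 15.90 and 15.68 in myoblasts, 16.98, 17.04 and 16.97 in myotubes, 12.74, 12.59 and 12.46 in EDL and 11.09, 10.91 and 11.03 in soleus. It was already high in myoblasts, rose by 1.19 (SE 0.10, adjusted p = 1.6e-06) in myotubes, a call lost with spike-in scaling (0.82), and stood 21.1-fold lower in EDL and 63.4-fold lower in soleus than in myotubes (log2 differences of -4.40 and -5.99, adjusted p = 6.9e-11 and 1.5e-11). Soleus was below EDL, with a log2 difference of -1.58 (SE 0.10, adjusted p = 1.1e-06). Ankrd23 (chr1:36474937-36474996, minus strand) read 8.11, 8.14 and 8.30 in myoblasts, 15.11, 15.31 and 15.19 in myotubes, 18.23, 18.35 and 18.36 in EDL and 18.02, 18.25 and 18.06 in soleus. It rose in myotubes by 7.02 (SE 0.09, adjusted p = 6.5e-12) and in EDL and soleus by 3.11 and 2.90 more (adjusted p = 6.8e-10 and 1.2e-09), with a difference of -0.20 between the muscles that was not called. The 3 ankyrin-repeat genes thus had 3 courses: Ankrd23 was high in both muscles, Ankrd2 in soleus, and Ankrd1 in the cultures.

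The four-and-a-half LIM domain proteins Fhl1, Fhl2 and Fhl3 bind titin, integrins and transcription factors. Fhl2, known best from the heart, was the member with the largest increase in soleus over EDL. Fhl2 (chr1:43067695-43067754, minus strand) read 14.65, 14.67 and 14.49 in myoblasts, 12.68, 12.72 and 12.65 in myotubes, 9.04, 8.88 and 9.07 in EDL and 13.62, 13.52 and 13.62 in soleus. It fell by 1.92 on the log2 scale from myoblasts to myotubes (SE 0.08, adjusted p = 1.2e-08) and was 12.9-fold lower in EDL than in myotubes (-3.69, SE 0.08, adjusted p = 7.7e-11). Soleus stood 24.0-fold above EDL (4.59, SE 0.08, adjusted p = 7.3e-10), and the arrays of the muscles did not overlap. Against myotubes, soleus differed by 0.90, which was not called and changed sign with spike-in scaling (-0.34). Fhl1 (chrX:53140029-53140088, plus strand) read 16.36, 16.48 and 16.17 in myoblasts, 17.09, 17.13 and 16.97 in myotubes, 17.71, 17.54 and 17.61 in EDL and 18.62, 18.63 and 18.31 in soleus. Its difference from myoblasts to myotubes was 0.73 and was not called, and soleus stood 1.45 (SE 0.12, adjusted p = 1e-06) above myotubes, a call lost with quantile normalisation (0.45), the authors' values (0.37) and spike-in scaling (0.22). The difference of 0.90 between soleus and EDL missed the size asked for a call, and reached it without soleus replicate 3 (1.01). Fhl3 varied widely among replicates, with means of 7.04 ± 0.61 (SD, n = 3), 6.85 ± 0.76, 8.32 ± 0.51 and 8.29 ± 0.40. Replicate 1 was the lowest in every group. Within the slides EDL exceeded myotubes by 1.78, 1.31 and 1.34, and soleus exceeded them by 1.85, 1.31 and 1.16. EDL and soleus were called 1.48 and 1.44 above myotubes (adjusted p = 0.011 and 0.013). Both calls were lost without replicate 2 of every group (1.56 and 1.5) and with spike-in scaling (0.52 and 0.20), and the EDL call with normexp (0.99).

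**Figure D2:**
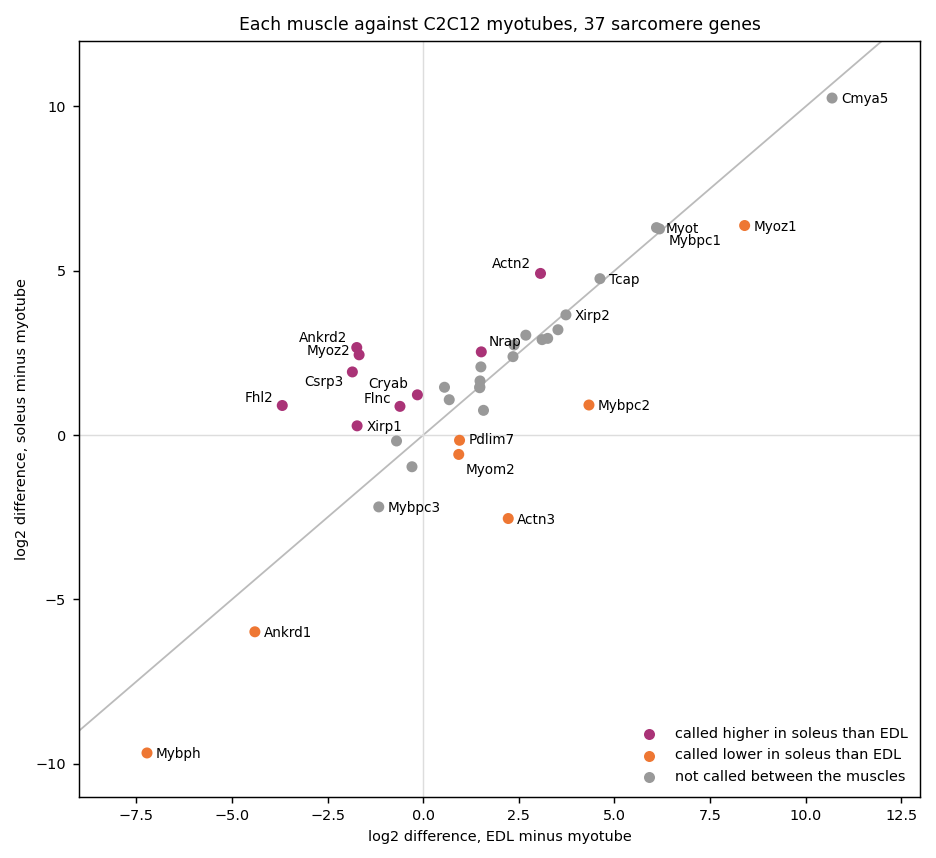
Log2 difference of EDL minus myotube (horizontal) and of soleus minus myotube (vertical) for the 37 genes; the grey diagonal marks equal values, purple points were called higher and orange points lower in soleus than in EDL. Both axes use the same 3 myotube arrays. Cmya5 lies highest on both axes and Mybph lowest, and Fhl2, Ankrd2, Myoz2, Csrp3 and Actn3 lie far from the diagonal.

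Among proteins at the edge of the Z-disc, which join it to desmin filaments, costameres and growing myofibrils, all 10 genes were higher in myotubes than in myoblasts (19.3% of all genes). Cmya5 encodes myospryn, a large desmin- and titin-associated protein, and read 1.29, 1.46 and 1.67 in myoblasts, 6.88, 7.03 and 7.0 in myotubes, 17.56, 17.70 and 17.73 in EDL and 17.09, 17.35 and 17.24 in soleus (chr13:94141628-94141687, minus strand). On the myoblast arrays it was not well above background. Its increases of 10.69 (SE 0.11, adjusted p = 1.7e-12) in EDL and 10.26 (SE 0.11, adjusted p = 2.1e-12) in soleus over myotubes were the largest of any member, 1653-fold and 1223-fold. The rise in myotubes was at least 16.1-fold on this probe (adjusted p = 7.5e-11 for the difference in signal as read, not for the bound), and was lost with normexp (0.11). The 2 other Cmya5 probes were at or near background in both cultures, with 1 and 0 of 3 myotube arrays well above it, so they bear on muscle only. They were tested only because they were well above background in the muscles. Both were called higher in both muscles than in myotubes, and the one below background on all myotube arrays gave at least 1386-fold in EDL and at least 1092-fold in soleus.

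Xirp1 and Xirp2 encode the Xin-repeat proteins of the Z-disc edge and the muscle-tendon junction. Xirp1 (chr9:119862804-119862863, minus strand) read 9.29, 9.26 and 9.53 in myoblasts, 12.63, 12.65 and 12.83 in myotubes, 10.91, 10.94 and 11.08 in EDL and 12.80, 13.02 and 13.14 in soleus. It rose by 3.34 (SE 0.11, adjusted p = 2.2e-09) in myotubes, was lower in EDL than in myotubes, with a difference of -1.73 (SE 0.11, adjusted p = 2.2e-07), and higher in soleus than in EDL by 2.01 (SE 0.11, adjusted p = 7.2e-07), a call lost with spike-in scaling (1.73). Soleus and myotubes overlapped, with a difference of 0.28 that turned with spike-in scaling (-0.96) and normexp (-0.10). Xirp2 (chr2:67327226-67327285, plus strand) read 7.56, 7.61 and 7.63 in myoblasts, 13.91, 13.95 and 13.92 in myotubes, 17.60, 17.72 and 17.67 in EDL and 17.47, 17.73 and 17.56 in soleus. It rose by 6.33 (SE 0.08, adjusted p = 5e-12) in myotubes and by 3.73 and 3.66 more in EDL and soleus (adjusted p = 6.3e-11 and 8.4e-11), and the muscles overlapped.

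Nrap, Nexn and Synpo2 encode actin-binding proteins of myofibril assembly and of the Z-disc. All 3 were higher in myotubes than in myoblasts (19.3% of all genes) and higher again in EDL (28.4%) and soleus (26.1%). The differences were 4.58, 1.52 and 2.53 for Nrap, 1.83, 1.48 and 1.47 for Nexn, and 3.85, 1.49 and 1.65 for Synpo2, in the order of myotubes against myoblasts, EDL against myotubes and soleus against myotubes (adjusted p of 1.1e-07 or less except for 4.9e-07 and 2.3e-07 of Synpo2 and 1.2e-07 of Nexn). With spike-in scaling the muscle calls of Nexn (0.52 and 0.23) and Synpo2 (0.53 and 0.41) and the EDL call of Nrap (0.56) were lost, and quantile normalisation and the authors' values also ended the EDL call of Nrap (0.84 and 0.87) and the Synpo2 calls (0.64 and 0.87, and 0.67 and 0.93). Nrap read 17.05, 17.25 and 17.32 in EDL and 18.13, 18.26 and 18.27 in soleus, a difference of 1.01 (SE 0.09, adjusted p = 2e-05) that just reached the size asked. It did not do so with spike-in scaling (0.74), normexp (0.64) or the authors' values (0.96), nor without EDL replicate 1 (0.94), soleus replicate 2 or 3 (0.99 each) or replicate 1 of every group (0.98).

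Des, Flnc, Smpx and Cryab moved less after the rise in culture. Desmin, the muscle intermediate filament protein, averaged 13.75, 16.24, 15.55 and 16.06 in myoblasts, myotubes, EDL and soleus (SD 0.02 to 0.24, n = 3), and neither muscle was called against myotubes with the percentile, while spike-in scaling called both lower (-1.66 and -1.42) and quantile normalisation and the authors' values called EDL lower (-1.29 and -1.21). Flnc encodes filamin C, an actin cross-linker that gathers at damaged Z-discs, and read 13.31, 13.26 and 13.46 in myoblasts, 15.10, 15.03 and 15.26 in myotubes, 14.49, 14.49 and 14.58 in EDL and 16.02, 15.96 and 16.03 in soleus. It rose by 1.79 (SE 0.08, adjusted p = 2.5e-08) in myotubes, and soleus exceeded EDL by 1.48 (SE 0.08, adjusted p = 7.4e-07), a call lost with spike-in scaling (1.20) and normexp (1.06). Of 4 Flnc probes, 3 were called higher in soleus than in EDL (4.86% of all probes) and the other gave 0.90. Smpx, a small muscle protein of the costamere, rose by 7.13 (SE 0.12, adjusted p = 2.2e-11) in myotubes, and its difference of 1.08 in soleus over myotubes (adjusted p = 1.7e-05) was lost with quantile normalisation (0.24), the authors' values (0.24), normexp (0.53) and without soleus replicate 1 (0.96), and turned with spike-in scaling (-0.16).

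Cryab encodes alpha-B crystallin, a small heat-shock protein that binds desmin and titin. Its brighter probe (chr9:50508565-50508624, plus strand) read 13.55, 13.88 and 14.13 in myoblasts, 15.07, 16.30 and 16.26 in myotubes, 15.44, 15.92 and 15.81 in EDL and 16.70, 17.32 and 17.28 in soleus. Myotube replicate 1 lay below the other myotube arrays. Soleus was above EDL without overlap, by 1.38 (SE 0.33, adjusted p = 0.0094), and above myotubes by 1.22 (SE 0.33, adjusted p = 0.0066), a value of 0.82 without myotube replicate 1 and of -0.01 with spike-in scaling. The second probe (chr9:50505406-50505465, plus strand) read 10.35, 10.28 and 10.65 in EDL and 9.25, 9.02 and 9.25 in soleus, and was called lower in soleus (-1.25, SE 0.12, adjusted p = 2.7e-05), where 4.86% of all probes were called higher and 4.54% lower. Averaged over both probes the difference between the muscles was 0.06. The direction of Cryab between the muscles therefore depends on the probe, and the call on the brighter one was also lost with spike-in scaling (1.1), normexp (0.98) and without replicate 2 (1.36) or replicate 3 (1.33) of every group.

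Pdlim3, Pdlim5 and Pdlim7 encode PDZ-LIM proteins, which bind alpha-actinin by the PDZ domain. Pdlim3 (chr8:47418121-47418180, plus strand) read 13.95, 14.06 and 14.03 in myoblasts, 17.01, 16.97 and 17.02 in myotubes, 16.67, 16.66 and 16.79 in EDL and 15.96, 16.03 and 16.11 in soleus. It rose by 2.98 (SE 0.07, adjusted p = 2.1e-10) in myotubes and was not called in the muscles with the percentile. EDL was called lower than myotubes with quantile normalisation (-1.15), spike-in scaling (-1.25) and the authors' values (-1.11). Soleus lay below myotubes, with a difference of -0.96, and was called lower with quantile normalisation (-1.72), spike-in scaling (-2.20), normexp (-1.43) and the authors' values (-1.69), and without soleus replicate 3 (-1.0). Pdlim5, on its brightest probe (chr3:142240737-142240796, minus strand), read 8.69, 8.84 and 8.71 in myoblasts, 12.91, 13.08 and 12.94 in myotubes, 14.16, 14.48 and 14.82 in EDL and 14.89, 15.34 and 14.92 in soleus. It rose by 4.23 (SE 0.17, adjusted p = 7.9e-09) in myotubes and by 1.51 and 2.07 more in EDL and soleus (adjusted p = 1.7e-05 and 1.4e-06), calls that were lost with spike-in scaling (0.55 and 0.84). Pdlim7, on its brightest probe (chr13:55516734-55517120, minus strand), read 11.34, 11.49 and 11.44 in myoblasts, 13.35, 13.68 and 13.59 in myotubes, 14.43, 14.56 and 14.48 in EDL and 13.24, 13.53 and 13.37 in soleus. It rose by 2.12 (SE 0.11, adjusted p = 4.4e-08) in myotubes, and soleus was below EDL, with a log2 difference of -1.11 (SE 0.11, adjusted p = 3.2e-05), a call lost with quantile normalisation and the authors' values (-0.96 with each) and with spike-in scaling (-1.38).

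Probes of 1 gene went apart in culture for Pdlim5, Pdlim7 and Synpo2. They were the only 3 of 18 members with several tested probes to have opposite calls in myotubes against myoblasts. Of all probes, 18.7% were called higher and 16.4% lower in that comparison. The share of all genes with opposite probe calls was not taken, so whether 3 of 18 is many cannot be told. Pdlim5 is known to make forms with and without the LIM domains. Its 2 probes on transcript variant 1 (NM_019808) fell from means of 9.50 and 9.52 in myoblasts to 5.70 and 5.58 in myotubes, differences of -3.79 (SE 0.13, adjusted p = 2.4e-09) and -3.94 (SE 0.12, adjusted p = 1.1e-09). On variant 2 (NM_019809), 2 probes rose by 4.23 and 3.72 (adjusted p = 9.2e-09 and 1.3e-07), and the remaining probe was not called (-0.85). The variant 1 probes lie at chr3:142182292-142182351, minus strand and chr3:142182357-142184699, minus strand, and the rising variant 2 probes at chr3:142240737-142240796, minus strand and chr3:142241794-142241853, minus strand, so the falling probes are nearer the 3′ end of this gene. In muscle both kinds were higher than in myotubes, by 1.74 and 1.42 in EDL and 2.28 and 2.17 in soleus for variant 1.

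The 2 Pdlim7 probes on a testis cDNA (AK033091) fell in myotubes by 4.24 and by 4.17 on the log2 scale (adjusted p = 3.4e-11 and 8.7e-11), while the 2 probes on NM_026131 rose by 2.12 and 2.35 (adjusted p = 5.6e-08 and 2e-07). The falling pair lies at chr13:55508569-55508628, minus strand and chr13:55508582-55508732, minus strand, nearer the 3′ end, as in Pdlim5. All 4 had lower means in soleus than in EDL, with differences of -1.22 to -0.97, and the NM_026131 probes were called. Against myotubes, 3 of the 4 Pdlim7 probes were called higher in EDL (26.5% of all probes) and 2 in soleus (24.5%). The brightest Pdlim7 probe was called in neither (0.95 and -0.16). With the mean over probes Pdlim7 was called higher in EDL than in myotubes (1.67). Of 3 Synpo2 probes, 2 rose in myotubes (3.85 and 3.17), and the probe on an unclassified bladder cDNA (chr3:123099348-123099407, minus strand) was at least 5.06-fold lower in myotubes, with 0 of 3 arrays well above background, than in myoblasts. That falling probe was tested only because all 3 myoblast arrays were well above background. With the mean over probes in place of the brightest probe, the difference in myotubes became -0.13 for Pdlim5 and -0.98 for Pdlim7, and Synpo2 was no longer called (0.90). The results for these genes hold for the transcripts their probes read.

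**Figure D3:**
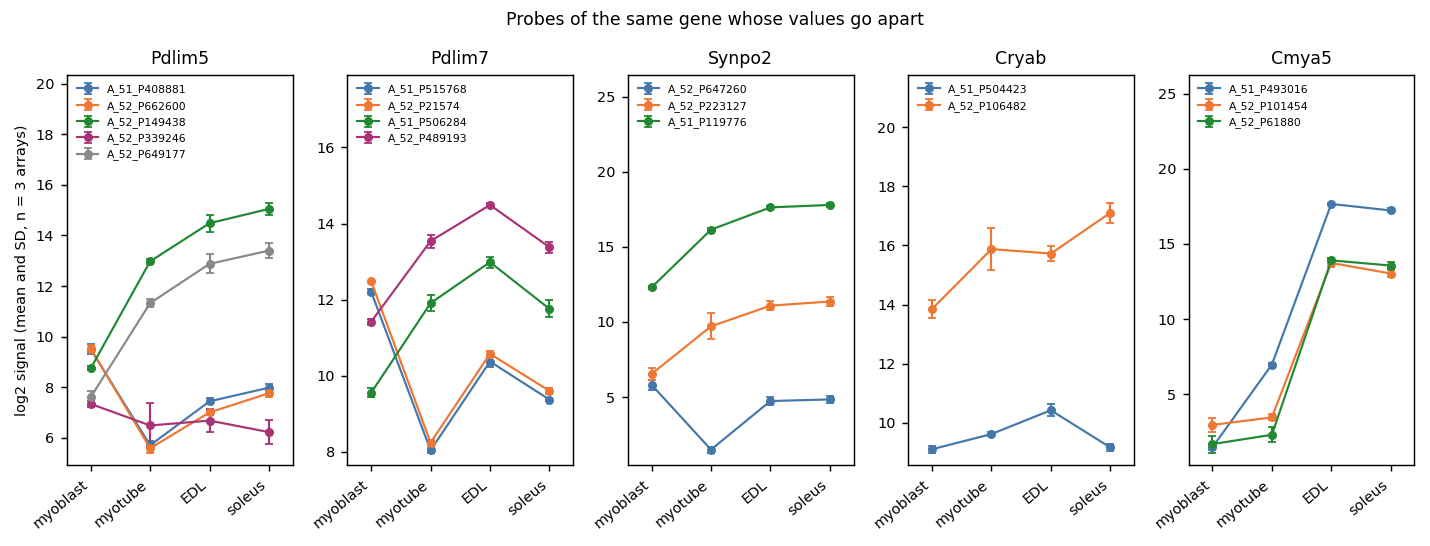
Mean log2 signal and SD (n = 3 arrays) in the 4 groups for each tested probe of 5 genes whose probes go apart. In Pdlim5 and Pdlim7, 2 probes fall and 2 rise from myoblasts to myotubes; in Synpo2, 1 falls and 2 rise; in Cryab the probes order EDL and soleus oppositely; in Cmya5 all 3 probes are high in both muscles.

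Related genes were also compared on the same array, where a scaling factor of the array cancels, while background correction and the authors' own normalisation do not. For 14 pairs the log2 signal of the first-named gene minus that of the second was taken on each array, and an exact two-sided permutation test compared 3 arrays with 3, for which the smallest possible p is 0.10. Between soleus and EDL, 12 of 14 pairs did not overlap (exact p = 0.1, adjusted 0.117 over the 14 pairs), so no pair could pass. For single genes the share without overlap was 44.8% of all genes, and no share over other pairs was taken. Myoz1, Ankrd2, Fhl1, Pdlim3 and Mybpc1 recur among the pairs, so the pairs are not independent. The value for Actn2 over Actn3 was 3.70 ± 0.08 in soleus (SD, n = 3) and -2.92 ± 0.15 in EDL, a shift of 6.62. Myoz2 over Myoz1 shifted by 6.15, Ankrd2 over Ankrd1 by 5.99, Ankrd2 over Ankrd23 by 4.61, Fhl2 over Fhl1 by 3.69 and Mybpc1 over Mybpc2 by 3.51. Myom1 over Myom2 shifted by 1.88, and Xirp2 over Xirp1 went the other way, by -2.08. The pairs that overlapped were Mybpc3 over Mybpc1 and Fhl3 over Fhl1.

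Myotubes took different places relative to the muscles in different pairs. Of the 14 pairs, 13 did not overlap between myotubes and myoblasts, 13 between EDL and myotubes and 12 between soleus and myotubes (exact p = 0.1 for each such pair). For single genes the shares without overlap were 68.9%, 76.3% and 74.1% of all genes in the same order. In myoblasts Myot and Mypn were not well above background, and Mybpc1, Mybpc2 and Myoz3 not on every array, so the myoblast values of their pairs are at or near background. The mean of Myoz2 over Myoz1 was 5.37 ± 0.03 in myotubes, above both soleus (1.43 ± 0.03) and EDL (-4.71 ± 0.16). For Actn2 over Actn3 myotubes, at -3.76 ± 0.13, lay below both EDL (-2.92 ± 0.15) and soleus (3.70 ± 0.08), and nearer to EDL. For Mybpc1 over Mybpc2 they also lay below both muscles and nearer to EDL, at -4.41 ± 0.20 against -2.57 ± 0.17 in EDL and 0.95 ± 0.12 in soleus. A shift shows unequal change of 2 probes, not which gene has more RNA.

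**Figure D4:**
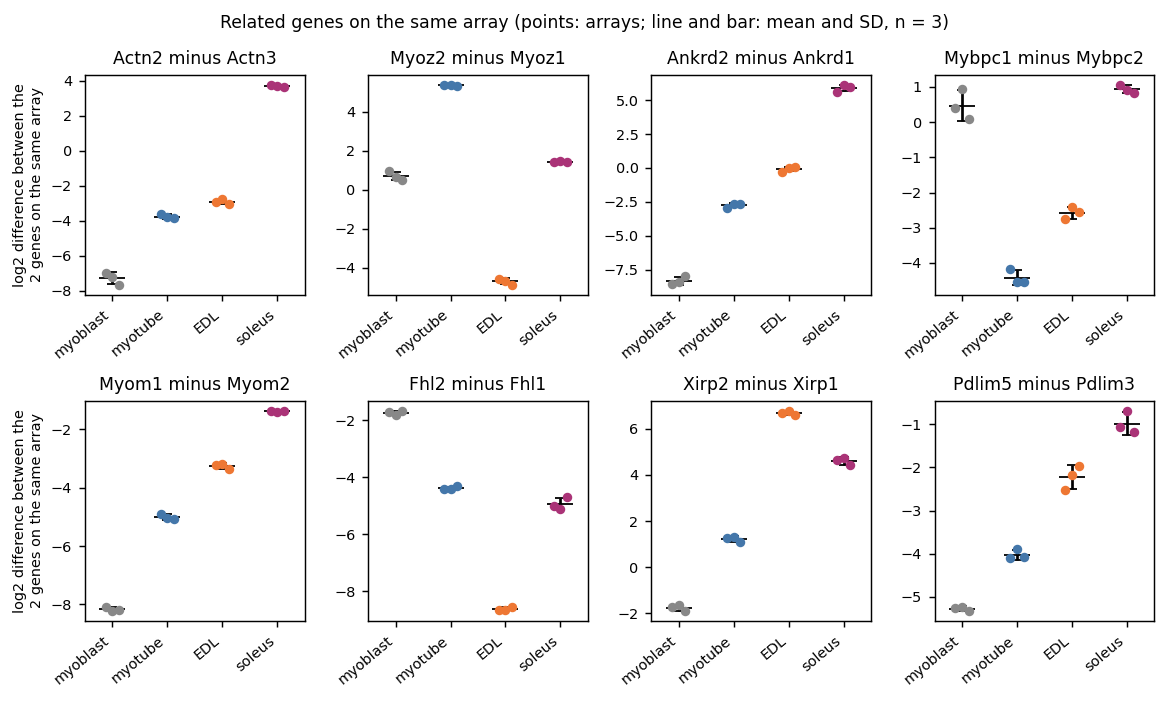
Log2 difference between 2 related genes on the same array, for 8 of the 14 pairs in the 4 groups; points are arrays and the line and bar give the mean and SD (n = 3). The 3 arrays of soleus and the 3 of EDL are apart in each of the 8 panels, and in Myoz2 minus Myoz1 the myotube arrays are highest.

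**Figure D5:**
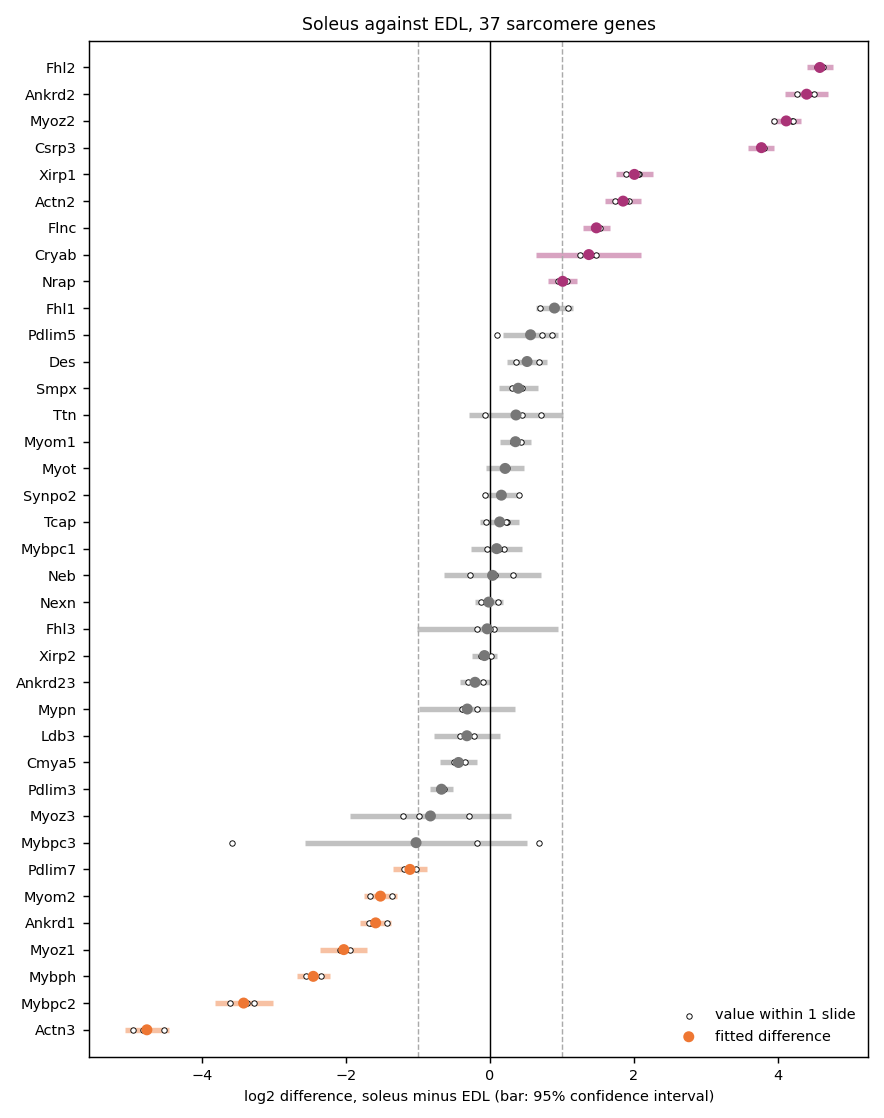
Log2 difference of soleus minus EDL for the 37 genes, sorted; filled points are fitted differences (purple called higher, orange called lower, grey not called), bars are 95% confidence intervals, open points are the values within each slide, and dashed lines mark a difference of 1. The points within a slide keep the sign for all called genes, from Actn3 at -4.76 to Fhl2 at 4.59, and Mybpc3 has the widest spread. The calls rest on these same arrays, so the kept sign is not a separate test.

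A list of 27 other sarcomere-associated genes, all measured, gave the setting. In myotubes 22 were higher and 2 lower than in myoblasts (19.3% and 16.2% of all genes; median 4.29), with the chaperones Hspb7 (8.05, SE 0.12, adjusted p = 1.1e-11) and Unc45b (7.75, SE 0.07, adjusted p = 9.2e-13) and the Kelch protein Klhl41 (7.09, SE 0.14, adjusted p = 5e-11) largest. In EDL 14 were higher and 6 lower than in myotubes (28.4% and 19.6% of all genes; median 1.24) and in soleus 15 and 4 (26.1% and 19.3%; median 1.11), led in both by the small heat-shock protein Hspb6 (6.96 and 8.31), the filament protein Synm (6.65 and 5.76) and Mlip (6.08 and 6.32). Between the muscles 6 were higher and 1 lower in soleus (4.94% and 4.8% of all genes; median 0.20), led by Myom3, another myomesin (3.20, SE 0.10, adjusted p = 1.9e-08), Hspb7 (3.18) and Lmcd1 (1.58).

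Relatives of the members that are used outside striated muscle, 17 genes such as Actn1, Actn4, Flna and Vim, had fewer calls higher than lower in culture and against myotubes. In myotubes 1 was higher and 8 lower than in myoblasts (19.3% and 16.2% of all genes; median -0.26), and the lower ones included the actin cross-linker Flna (-3.57, SE 0.07, adjusted p = 6.9e-11) and the LIM protein Csrp2 (-3.18, SE 0.14, adjusted p = 1.3e-08). In EDL 0 were called higher in limma (1 higher at an unadjusted p under 0.05) and 8 lower than in myotubes (28.4% and 19.6% of all genes; median -0.93), and in soleus 1 and 8 (26.1% and 19.3%; median -0.93), with Pdlim2 (-4.90 and -4.79), Nes (-4.71 and -4.39) and Pdlim4 (-4.00 and -3.24) lowest. Between the muscles Pdlim1 was higher in soleus (3.56, SE 0.10, adjusted p = 9.9e-09), and Actn1 (-2.26, SE 0.26, adjusted p = 9.1e-05) and Tln1 (-1.08, SE 0.12, adjusted p = 0.0001) were lower. The summed signal of the 17, on the linear scale, was 724124 to 734910 in myoblasts, 346500 to 394570 in myotubes, 98114 to 107955 in EDL and 208455 to 227466 in soleus. Most of the excess of soleus over EDL was Pdlim1 alone, with means of 16.87 in soleus and 13.31 in EDL. Such a sum is ruled by its brightest probes.

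Markers of other cells moved with the muscle results. Against myotubes, 28.4% of all genes were called higher in EDL and 26.1% in soleus. All 7 of 7 endothelial markers were higher in each muscle. Their summed signals were 73.0 to 92.2 in myotubes, 36103 to 36809 in EDL and 38485 to 42036 in soleus. Cdh5, Pecam1, Tie1 and Emcn were not well above background in either culture. Markers not well above background in culture were tested only because of their muscle signal, so their calls were close to fixed in advance. Smooth muscle and pericyte markers were higher for 6 of 8 in EDL and 7 of 8 in soleus, fibroblast markers for 6 of 6 in both (summed 156969 to 190030 in EDL and 115944 to 123158 in soleus), macrophage markers for 4 of 5, adipocyte markers for 4 of 4, Schwann markers for 4 of 4 and erythroid markers for 2 of 2. Between soleus and EDL, 4.94% of all genes were called higher in soleus and 4.8% lower. Of 4 adipocyte markers 3, Adipoq, Plin1 and Cfd, were higher in soleus. The adipocyte sum was 113614 to 130475 in soleus against 80239 to 85747 in EDL. Most of it was Fabp4, the marker not called, with means of 16.81 in soleus and 16.30 in EDL. Of 4 Schwann markers 1, Mbp, was higher, and of 2 erythroid markers 1, Hba-a1, was lower. Of 26 smooth muscle, endothelial, fibroblast and macrophage markers 0 were called in limma (11 had an unadjusted p under 0.05). The part of these cells in the results for the members was not tested. The cardiac gene Myh6 was 6.28 higher in soleus than in EDL, and Nppa and Tnni3 were not called between the muscles.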

How the data were processed

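RNA of 12 samples was measured on one-colour Agilent arrays, and the deposited files hold each spot's intensity as Agilent Feature Extraction 10.5.1.1 gave it, per the file headers. The authors' deposited value table of the same arrays, also on an intensity scale, served as an alternative. Control and outlier-flagged spots were left out, spots of a probe were averaged, and the log2 processed intensity was set to each array's 75th percentile, with the constant 9.71 added back to all arrays. A probe was tested if some group had it well above background on all 3 of its arrays (28618 of 41174), and the brightest such probe, by the mean over arrays, stood for the gene.

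Groups of 3 were compared with limma 3.58.1 in R 4.3.3, with 4 group means, 8 residual degrees of freedom, no block and Benjamini-Hochberg adjustment over all genes, or over all probes where probes are described. Calls needed an adjusted p under 0.05 and a log2 difference of at least 1. The code was tested on simulated data. Same-numbered samples, which share a slide, deviated together (r of 0.23 to 0.66, over 0.1 in 18 of 18 pairs), and the slide as a block was an alternative. Alternatives were quantile and spike-in scaling, normexp, the authors' values, the mean over probes, other filters and call rules, and leaving out arrays. Precision is limited by the number of arrays. The members, the gene lists and the pairs were chosen with earlier results of these data known. All 12 array values are given for members with 1 of the 4 highest or lowest called differences in a comparison, with differing directions, or in a pair without overlap between the muscles. Array values of some other members, such as Ttn and Cryab, are also given. Promoter sequences are from RefSeq (GRCm38.p6). Of the list of relatives, 1 gene is not reported here by name.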

Additional observations from a re-analysis of the deposited data

Results flagged for a closer look

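Against the same myotube arrays, soleus and EDL gave different values for 16 members, by the test of soleus against EDL itself in limma. Higher in soleus were Fhl2 (4.59), Ankrd2 (4.40), Myoz2 (4.12), Csrp3 (3.77), Xirp1 (2.01), Actn2 (1.85), Flnc (1.48), Cryab (1.38) and Nrap (1.01). Lower in soleus were Actn3 (-4.76), Mybpc2 (-3.42), Mybph (-2.45), Myoz1 (-2.03), Ankrd1 (-1.58), Myom2 (-1.52) and Pdlim7 (-1.11). All values are log2 differences of soleus minus EDL. All 16 kept their sign within each of the 3 slides, but they were called on these same arrays, so this is not a separate test. The called direction against myotubes was opposite in the muscles for Myoz2, Csrp3, Ankrd2 and Actn3.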

How the results depend on the processing

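The count of the 34 members called was 31 in myotubes against myoblasts, 25 in EDL and 26 in soleus against myotubes, and 15 in soleus against EDL. It stayed within 1.5 times of these under the alternatives run, except in soleus against EDL with normexp, which called 9. With 1 array or 1 replicate number left out it ran from 31 to 32, 23 to 26, 24 to 27 and 14 to 15. With the replicate number as a block it was 32, 25, 26 and 15, and the block changed no call but Myoz3 in myotubes against myoblasts, called at 1.02. Of 14 pairs, 13 to 14, 13 to 14, 12 to 13 and 12 to 14 did not overlap with a replicate number left out, 11, 13, 12 and 11 with normexp, and 13, 14, 12 and 12 with the authors' values. Of the 56 pair shifts themselves, 24 moved by more than the spread between replicates with normexp and 34 with the authors' values. Some differences changed sign, and the cause was not tested. With quantile normalisation these were Myom2 (-0.43), Smpx (-0.20) and Fhl1 (-0.46) in EDL against myotubes, and Nexn (0.022) in soleus against EDL. With spike-in scaling they were Myom2 (-0.031), Smpx (-0.28), Fhl1 (-0.40) and Pdlim7 (-0.011) in EDL against myotubes, Myoz3 (-0.48), Mybpc2 (-0.32), Xirp1 (-0.96), Smpx (-0.16), Flnc (-0.36), Cryab (-0.012) and Fhl2 (-0.34) in soleus against myotubes, and Neb (-0.24), Tcap (-0.14), Mybpc1 (-0.18), Myot (-0.063) and Synpo2 (-0.11) in soleus against EDL. With normexp they were Myoz3 (-1.01) in myotubes against myoblasts, Mybpc3 (0.017) and Xirp1 (-0.10) in soleus against myotubes, and Ttn (-0.12), Neb (-0.36), Myom1 (-0.022), Myoz3 (0.60), Tcap (-0.26), Mybpc1 (-0.28), Mybpc3 (0.31), Myot (-0.26), Smpx (-0.091), Fhl3 (0.39) and Synpo2 (-0.23) in soleus against EDL. With the authors' values they were Myom2 (-0.32), Smpx (-0.17) and Fhl1 (-0.52) in EDL against myotubes, Ankrd23 (0.039) in soleus against EDL, and Fhl2 over Fhl1 (0.47) in soleus against myotubes. With the mean over probes they were Pdlim5 (-0.13) and Pdlim7 (-0.98) in myotubes against myoblasts, Cryab (0.33) in EDL against myotubes, Pdlim7 (0.60) in soleus against myotubes, and Xirp2 (0.082) and Nexn (0.24) in soleus against EDL. With arrays left out, sign changes lay in the ranges of Fhl3 in myotubes against myoblasts (-0.54 to 0.25), Cryab in EDL against myotubes (-0.56 to 0.062), and Neb (-0.25 to 0.23), Mybpc3 (-1.88 to 0.26), Fhl3 (-0.32 to 0.19) and Nexn (-0.083 to 0.051) in soleus against EDL. Of these differences the ones called with the percentile were Mybpc3, Smpx and Cryab in soleus against myotubes and Pdlim5 and Pdlim7 in myotubes against myoblasts.

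Signal near background limits Myoz3 and Mybpc3, and the myoblast levels of Mypn, Myot, Cmya5, Mybpc1 and Mybpc2. With 3 arrays a group and scaling that moves the median probe by up to 1.24, many muscle calls depend on the scaling chosen. Spike-in scaling also ended the calls of Neb in soleus against myotubes (2.39, then 1.15) and Xirp1 in soleus against EDL (2.01, then 1.73). Both values stayed above the size asked for a call, and the calls failed on the adjusted p. Position on the slide cannot be told apart from group.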
